A study of Sus scrofa with 6 samples.

Results

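Besides annotated genes, the piglet liver tables list transcribed loci that carry only the authors' own running identifiers, such as Novel00135. The loci described here are those that lie outside the mitochondrial sequence. They were selected on their levels: a locus had to reach 1 FPKM (a fragment count scaled to transcript length and to the size of the library) in at least 3 of the 6 libraries. The rule took 1116 of the 1410 unannotated nuclear rows, out of 26733 rows in all. The same level was reached by 9784 of the 25322 annotated rows, so 79.1% of the unannotated and 38.6% of the annotated rows passed. How many rows passed and how high they stand follow from the rule and are given as description.

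Liver was taken from newborn piglets of Landrace x Yorkshire breeding, and the groups differ in how their mothers were fed tryptophan. A sow of the 2×Trp group got 0.26% tryptophan in both of its daily meals. A sow of the High-Low group got 0.39% in its morning meal and 0.13% in its afternoon meal. There are 3 libraries of each group. Since nothing in the labels ties them to separate piglets or litters, the p-values here reflect no more than the scatter among these 6 libraries, part of which can be technical.

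A transcribed locus outside the gene annotation can be a gene that the annotation missed, an unlisted start or end of a known gene, a long non-coding RNA, or a copy of a gene on a stretch that the assembly could not place. Read-based assembly of transcripts reports all of these under running identifiers, without naming their kind. In liver, a few secreted-protein genes take up much of the messenger RNA. Coordinates below are those of the authors' tables on the susScr3 pig assembly.

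Of the 1116 loci, 871 lay on chromosomes and 245 on 196 unplaced scaffolds, the assembly pieces without a chromosome position. Scaffolds held 21.95% of the unannotated loci and 8.09% of the annotated rows at the same level. Chromosome 6 had the most loci (103), followed by chromosomes 2 (77), 1 (75), 13 (69), 3 (65) and 7 (63). Chromosome X had 15, which is 1.34% of the loci beside 2.94% of the annotated rows. The listed strand was plus for 549 loci and minus for 567.

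The loci on scaffolds were shorter and had higher values than those on chromosomes. Their median listed length was 205 bases, against 612 on chromosomes, and their median level over the 6 libraries was 26.7 FPKM, against 4.88. Over all members the median listed length was 480 bases, with a range of 72 to 8065, and the median distance from start to end was 4760 bases. For annotated rows at the same level the medians were 722 and 15411 bases. The listed length equalled the distance from start to end in 41 loci (3.67%), much as among annotated rows (3.54%). What the length column measures is not stated. It gives 777 bases for GYS2 and 252 for ITIH3, both genes with longer messenger RNAs, so it may not be the full transcript length.

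The lower and upper quartiles of the loci were 2.51 and 26.7 FPKM, around a median of 6.10, beside a median of 6.97 for the annotated rows. The upper end was fuller: 134 loci (12.01%) averaged 100 FPKM or more, against 8.08% of annotated rows, and 26 (2.33%) averaged 1000 or more, against 1.51%. The high values sat with short listed lengths. Of the 17 loci of at most 100 bases, 12 averaged 100 FPKM or more. Among the 148 loci over 2000 bases, 2 did (1.35%, against 1.12% of annotated rows of that length). At 101 to 150 bases, 42.5% of the loci and 18.3% of the annotated rows did. The order was reversed at 301 to 500 bases, with 4.19% against 12.1%. So it was at 501 to 1000 bases (5.96% against 8.42%) and at 1001 to 2000 bases (3.45% against 4.23%). Of the 26 loci at 1000 FPKM or more, 19 were listed under 200 bases and 19 lay on scaffolds. Across the loci, Spearman's rho of level and listed length was -0.42, and it was -0.19 across the annotated rows, where loci and rows share the same 6 libraries and are not independent replicates. FPKM divides by a length. If that is the listed one, a short row needs few fragments for a high value, but the labels do not say which length was used. Some short rows of unlike listed length had FPKM in ratios of small whole numbers, given under other observations. Which length was divided by was not tested.

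**Figure D1:**
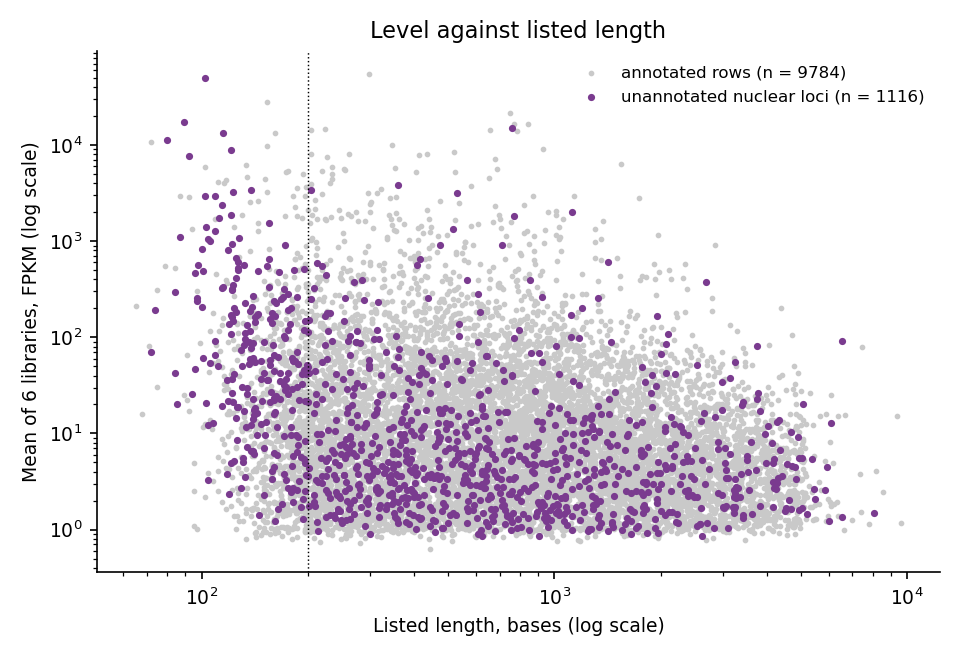
Mean level over 6 libraries (vertical, FPKM, log scale) against listed length in bases (horizontal, log scale), with 1 point per row: 1116 unannotated nuclear loci in purple, 9784 annotated rows at the same level in grey, and a dotted line at 200 bases. Of the 26 unannotated loci at 1000 FPKM or more, 19 lie left of the dotted line.

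The member of highest level was Novel01334, on scaffold GL896361.1 from 61047 to 62636, with a listed length of 102 bases. It stood at 65316, 26357 and 33936 FPKM in the 2×Trp libraries and at 53096, 58258 and 58155 FPKM in the High-Low libraries. The groups overlap, since 2×Trp replicate 1 was above every High-Low library. It was the highest of all 26733 rows in 3 libraries and the second highest by the mean. Its nearest annotated row, ENSSSCG00000030109, lies 12195 bases away and averaged 3.91 FPKM in 2×Trp and 3.09 in High-Low.

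Among the 10 loci of highest mean level, 2 are placed on chromosomes. Novel00631 (chromosome 3, 71150674 to 71151434, listed length 759) was listed at 13620, 15183 and 12594 FPKM in 2×Trp and at 28009, 14004 and 6370 FPKM in High-Low. Its High-Low libraries hold both the highest and the lowest value. It is the only one of the 10 with a listed length over 500 bases. Novel00404 (chromosome 15, 117249290 to 117257466, listed length 80) ran from 2509 to 21366 FPKM, with both ends of that range in different groups. The other members of the 10 lie on scaffolds: Novel01171, Novel01384, Novel01346, Novel01315, Novel01319, Novel01237 and Novel01238, besides Novel01334. Novel01237 and Novel01238 are on different scaffolds, yet their values moved together: the ratio of the first to the second stayed between 0.879 and 1.13, with a Pearson r of 0.96 over the 6 libraries on log2(FPKM + 1).

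The loci named next are from the 22 chromosomal loci of highest mean and were picked after their values and flanking genes were seen, so they stand for no common theme. Novel00307 (chromosome 13, 38123876 to 38125227) lies 3693 bases from ITIH3, which encodes a heavy chain of the inter-alpha-trypsin inhibitor secreted by hepatocytes. Its values were 3115, 3997 and 2986 FPKM in 2×Trp and 1940, 4424 and 2426 FPKM in High-Low. The High-Low libraries span the 2×Trp range on both sides. The flanking named genes are ITIH3 and ITIH4, another heavy-chain gene, and RefSeq's Sscrofa11.1 list has no further gene between them.

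Novel00956 (chromosome 7, 122999125 to 123000544) ends 556 bases from ENSSSCG00000002484, a row without a symbol that averaged 16075 FPKM in 2×Trp and 10427 in High-Low. The locus itself averaged 635 ± 25.8 and 570 ± 167 FPKM (SD, n = 3 each). Between its flanking genes SERPINA5 and GSC, RefSeq lists 7 genes, among them SERPINA3-2, a member of the serine protease inhibitor family to which major acute-phase proteins belong. Novel00244 (chromosome 12, 41091109 to 41145407) averaged 1400 ± 367 FPKM in 2×Trp and 1260 ± 507 in High-Low. RefSeq lists 7 genes in the interval from CCL3L1 to CCL5, including the chemokine genes CCL14 and CCL16.

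Novel01406 on chromosome X (125569074 to 125573427) averaged 2068 ± 143 FPKM in 2×Trp and 1955 ± 577 in High-Low. Its flanking genes are GPC4 and GPC3, which encode glypicans, proteoglycans of the cell surface, and GPC3 is abundant in fetal liver. GPC3 averaged 2051 and 1699 FPKM and lies 102683 bases away. Novel00102 (chromosome 1, 293381147 to 293388566) lies between the complement gene C5 and RAB14 and averaged 1935 ± 807 and 1735 ± 808 FPKM. RefSeq lists 1 gene, CNTRL, in that interval.

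For some loci the RefSeq list has further named genes between the closest pair of flanking genes that could be matched by symbol. Between USP4 and RHOA, where Novel00305 had 405 ± 63.4 FPKM in 2×Trp and 378 ± 65.7 in High-Low, RefSeq lists GPX1, which encodes the glutathione peroxidase that removes peroxides in the cytosol. Between SGCE and PPP1R9A, around Novel01109 (374 ± 207 and 377 ± 63.9 FPKM), it lists PEG10, an imprinted gene. Between LAG3 and MLF2, around Novel00780 (967 ± 83.2 and 853 ± 354 FPKM), it lists PTMS, the parathymosin gene. Around Novel01063 (365 ± 84.8 and 386 ± 52.6 FPKM), the interval from MAP6 to UVRAG holds MOGAT2 and DGAT2, enzymes of triglyceride synthesis. Intervals were matched by gene name only. Whether a locus is one of these genes was not tested.

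Few loci overlap annotated rows, which can follow from how rows outside the annotation are set apart, so this paragraph is description. On the same sequence as at least 1 annotated row were 1005 loci, with a median gap of 7607 bases to the nearest one. Between an annotated row and its nearest annotated row the median was 4229 bases. Overlapping rows enter these medians as a gap of 0. Overlap was found for 5 loci (0.448%), against 17.8% of annotated rows. A gap of at most 5 kb was found for 419 loci (37.5%), 5 to 50 kb for 432 (38.7%) and over 50 kb for 149 (13.4%). For 111 loci (9.95%) the scaffold held no annotated row at all. These 111 had a median level of 25.7 FPKM and a median listed length of 198 bases.

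**Figure D2:**
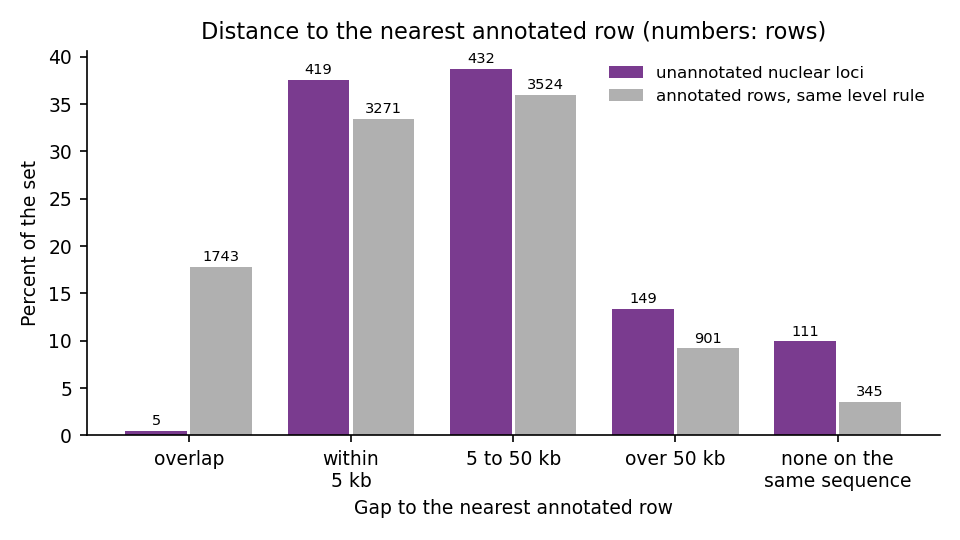
Percent of rows (vertical) by gap to the nearest annotated row (horizontal), for the 1116 unannotated nuclear loci in purple and the 9784 annotated rows at the same level in grey, with the number of rows over each bar. The sets differ most at overlap, with 5 unannotated loci and 1743 annotated rows, which can follow from how unannotated rows are set apart. No annotated row is on the sequence of 111 and 345.

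The 419 loci within 5 kb were found on both sides and both strands of their neighbour. On the opposite strand, 123 lay before the neighbour's start, with a median gap of 785 bases and 51 of them within 500 bases, the head-to-head layout of genes that start from a shared promoter region. Past the neighbour's end on the opposite strand lay 119. On the same strand, 101 lay downstream and 76 upstream of the neighbour, with median gaps of 1458 and 1834 bases. Nothing in the labels says whether reads were assigned by strand.

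Most loci tracked their nearest annotated row loosely across the libraries. Over the 6 libraries, the median Pearson r of log2(FPKM + 1) between a locus and its nearest annotated row was 0.26 for 376 loci within 5 kb, 0.22 for 342 at 5 to 50 kb and 0.23 for 115 farther away. For annotated rows and their own nearest annotated rows the medians were 0.30, 0.21 and 0.18. With only annotated rows at the same level as neighbours, the medians for the loci were 0.28, 0.27 and 0.16. Rows of a library share its depth and composition, and pairs with a row that is constant over the libraries have no r.

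Among the 5 longest loci, Novel00777 tracked its neighbour closely. This locus (chromosome 5, 55191839 to 55204292, minus strand, listed length 6093) lies 135 bases past the end of GYS2, the liver glycogen synthase gene on the plus strand. Between the flanking genes GYS2 and GOLT1B, RefSeq lists 1 gene, SPX. Novel00777 was listed at 16.8, 16.6 and 10.5 FPKM in 2×Trp and at 11.3, 3.24 and 18.4 FPKM in High-Low. GYS2 was at 133.6, 94.9 and 60.6 FPKM in 2×Trp and at 118.2, 12.3 and 166.3 FPKM in High-Low. Both rows were lowest in High-Low replicate 2 and highest in High-Low replicate 3, and r was 0.96. Novel00367, 162 bases from the clusterin gene CLU, had 0.279 to 4.34 FPKM beside at least 1209 FPKM of CLU in every library.

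The loci of greatest listed length were otherwise low. Novel00409 (8065 bases, chromosome 15, between FARP2 and THAP4) lay between 1.23 and 1.84 FPKM in all 6 libraries. Novel00847 (6547 bases, chromosome 6), 426 bases from MIB1, lay between 0.726 and 2.27 FPKM. Novel00556 (6530 bases, chromosome 2, 75687397 to 75715172) was the exception among the 5 longest. Its values were 129.8, 85.6 and 85.9 FPKM in 2×Trp and 76.3, 81.4 and 90.3 FPKM in High-Low.

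Some loci overlap each other. There were 18 overlapping pairs of members, 17 of them on opposite strands, and the median r within a pair was 0.76. In pairs like these, reads from the 2 strands cannot be told apart unless the counting used strand. Novel00870 and Novel00793, on the minus and plus strands of chromosome 6 from 874068 and 874626, share 1411 bases. Novel00870 was at 221, 549 and 405 FPKM in 2×Trp and at 173, 136 and 77.0 FPKM in High-Low. The ratio of Novel00870 to Novel00793 stayed between 3.04 and 3.23 in all libraries. For each of them, every High-Low library lay below every 2×Trp library, with log2 fold changes (High-Low minus 2×Trp) of -1.58 and -1.52 (SE 0.41 and 0.40) and an adjusted p of 0.998 for each in limma. Novel00870 lies 1369 bases from ENSSSCG00000020149, which averaged 28195 FPKM in 2×Trp and 27640 in High-Low and ran from 4886 to 46595 over the libraries.

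All 6 libraries detected most of the loci. At 1 FPKM or more in every library were 832 loci, and 85 were at that level in exactly 3. In at least 1 library, 59 were listed at 0, which in such tables can be a failed estimate. The coefficient of variation over the 6 libraries had a median of 36.1% for the loci and 26.1% for annotated rows at the same level. High-Low replicate 1 was the highest library for 297 loci (26.6%, beside 23.6% of all rows tested), and High-Low replicate 3 for 93 (8.33%, beside 9.92%).

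Just inside the rule stood Novel00209, Novel00520 and Novel00289, where the third highest library had 1.006, 1.013 and 1.014 FPKM. Just outside stood Novel00408, Novel01344 and Novel00789, at 0.9997, 0.995 and 0.993 FPKM. Loci at the edge can still be high in 1 library: Novel00289 reached 5.46 FPKM in High-Low replicate 2, and Novel01344 reached 3.12 FPKM in 2×Trp replicate 2.

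The loci held between 16.7% and 24.5% of the nuclear FPKM sum of a library. Those with a listed length of 200 bases or more held 4.09% to 6.17%. The shares of all loci were 19.4%, 19.6% and 18.3% in 2×Trp and 24.5%, 16.7% and 21.5% in High-Low. The High-Low libraries hold both the highest and the lowest share, so the groups overlap. The mean difference of 1.85 percentage points had a two-sided p of 0.5 in an exact permutation test, where 3 against 3 libraries allow no p below 0.1. Without High-Low replicate 1 the difference was 0.0584 points, without High-Low replicate 2 it was 3.95, and without Novel01334 it was 0.254. With each FPKM multiplied by its listed length, which undoes the division only if FPKM was computed with that length, the loci held 10.1% to 14.6%, a mean of 11.2% beside their 10.2% of the rows tested.

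Whether the mother's feeding schedule went with the level of these loci was tested by limma on log2(FPKM + 1), fitted over all 10901 rows that pass the level rule. No locus passed an adjusted p of 0.05, neither among those higher in High-Low (background 0.00917% of all rows, a single mitochondrial row) nor among those lower (background 0%). At an unadjusted p under 0.05, 19 loci (1.70%) were higher in High-Low and 37 (3.32%) lower, beside backgrounds of 1.25% and 1.92% of all rows. Of these 56 loci, 5 had passed the level rule through 1 group alone, which sets their direction. With all 3 libraries of a group apart from all 3 of the other, 33 loci (2.96%) were higher in High-Low and 59 (5.29%) lower, beside 3.06% and 4.12% of all rows. The median log2 fold change was 0.01 over the loci, on the High-Low minus 2×Trp scale, and -0.00 over all rows, with 565 loci above 0 and 551 below.

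Single loci spread more widely than other rows: 46 loci (4.12%) differed by more than 1 on the log2 scale, beside 1.65% of all rows, and the median SE was 0.31, beside 0.26. The rule passed 8 loci through 1 group alone, 4 through each, and all 8 are among those whose groups do not overlap, as the rule requires of them. Leaving out High-Low replicate 2 brought 179 loci (16.0%) to an unadjusted p under 0.05, 90 higher and 89 lower, when 13.0% of all rows reached it.

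The levels of some other features, summed per library, are given here by group, and their part in these values was not tested. The mitochondrial sequence held 3.48% to 5.20% of the FPKM sum in 2×Trp and 5.83% to 10.02% in High-Low. The 4 matched of 6 red cell markers summed to between 6167 and 15891 FPKM in 2×Trp and between 1816 and 7197 in High-Low, none of them at 0. The 4 matched of 6 endothelial markers summed to 66.09 to 100.3 FPKM and 43.0 to 66.06, and the 5 matched of 7 macrophage markers to 413 to 572 and 246 to 444. The 5 matched of 6 neutrophil markers summed to 24.5 to 34.8 FPKM in 2×Trp and 30.2 to 98.2 in High-Low. Only the mitochondrial and endothelial ranges, among those given here, do not overlap between the groups. Hepatocyte markers, 8 of 10 matched, summed to 44169 to 59544 FPKM in 2×Trp and 42593 to 65374 in High-Low, with AHSG listed at 0 in all libraries. In whole tissue, fewer cells of a type and less RNA per cell cannot be told apart.

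**Figure D3:**
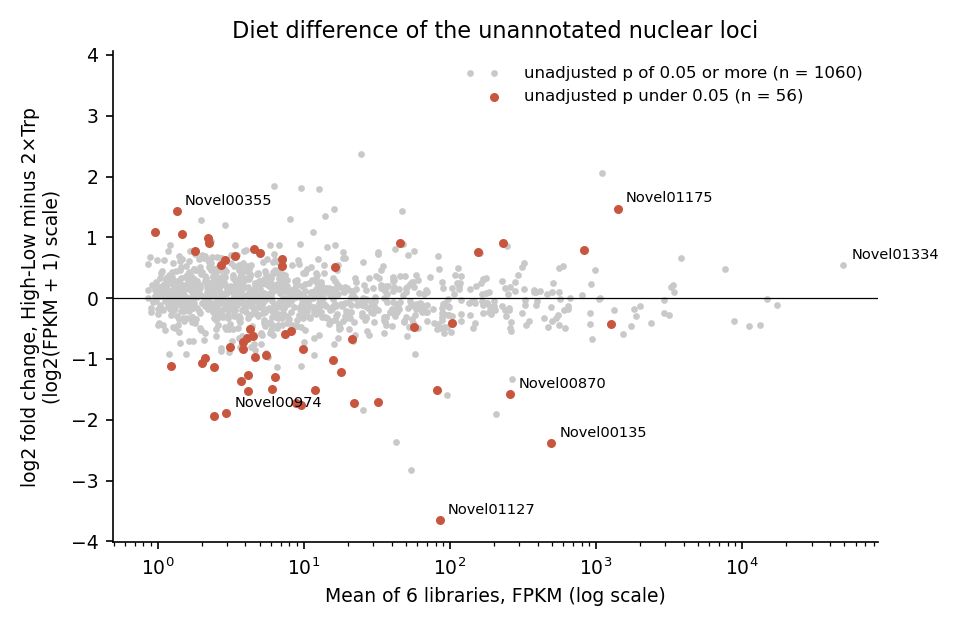
Log2 fold change of each unannotated nuclear locus (vertical, High-Low minus 2×Trp on the log2(FPKM + 1) scale) against its mean level in FPKM (horizontal, log scale), with the 56 loci at an unadjusted p under 0.05 in red and the other 1060 in grey. Novel00135 and Novel01127 lie farthest below 0 among the red points, and no point passed an adjusted p of 0.05.

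The loci described next were chosen for their small p or named with their values known, so their differences are descriptions. Novel00135 (chromosome 10, plus strand, 73620195 to 73628656, listed length 101) stood at 701, 1102 and 693 FPKM in 2×Trp and at 179, 150 and 139 FPKM in High-Low. The groups are far apart, with the lowest 2×Trp library above every High-Low library. The log2 fold change was -2.38 (SE 0.24, 95% interval -2.94 to -1.83), with an adjusted p of 0.0848 in limma. Scaling each library to its FPKM total, or to its nuclear sum without the 20 most abundant rows, took the adjusted p to 0.0114 and 0.0337, and over all alternatives it ran from 0.0114 to 0.412. The next smallest adjusted p among the loci was 0.998.

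Novel00135 lies 11865 bases from PFKP, the gene of the platelet-type phosphofructokinase of glycolysis, which is on the other strand. PFKP averaged 3.42 ± 1.01 FPKM in 2×Trp and 2.37 ± 0.557 in High-Low (SD, n = 3 each), so the locus had the far higher FPKM in both groups. The listed lengths are 101 bases for the locus and 228 for PFKP, and high FPKM sat with short listed lengths among the loci. The other flanking gene is PITRM1, a mitochondrial peptidase gene, and RefSeq lists 1 unnamed gene in between.

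Novel00974 (chromosome 7, 34705072 to 34711415, listed length 279) was low throughout. Its values were 4.84, 6.65 and 3.97 FPKM in 2×Trp and 0.901, 1.31 and 0 FPKM in High-Low. Every High-Low library was below every 2×Trp library, and the log2 fold change was -1.89 (SE 0.35, adjusted p 0.998 in limma). The nearest annotated gene is MLN, which encodes the gut peptide motilin, 32217 bases away and listed at 0 in all libraries.

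Novel01343 (scaffold GL896378.1, 6958 to 9268, listed length 218) had the smallest spread of the 4 loci shown by library. It was at 8.23, 7.42 and 7.18 FPKM in 2×Trp and at 3.46, 3.58 and 3.40 FPKM in High-Low. The SDs were 0.552 and 0.0891 FPKM (n = 3 each), both small beside the gap between the groups. The log2 fold change was -0.94 (SE 0.18, adjusted p 0.998 in limma). Its scaffold carries no annotated row.

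Novel01275 (scaffold GL895858.2, 11 to 570, listed length 185) lies near the edge of its scaffold, which also has no annotated row. It was at 16.7, 19.2 and 10.3 FPKM in 2×Trp and at 3.80, 2.22 and 5.84 FPKM in High-Low. The groups did not overlap, and the log2 fold change was -1.75 (SE 0.34, adjusted p 0.998 in limma).

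**Figure D4:**
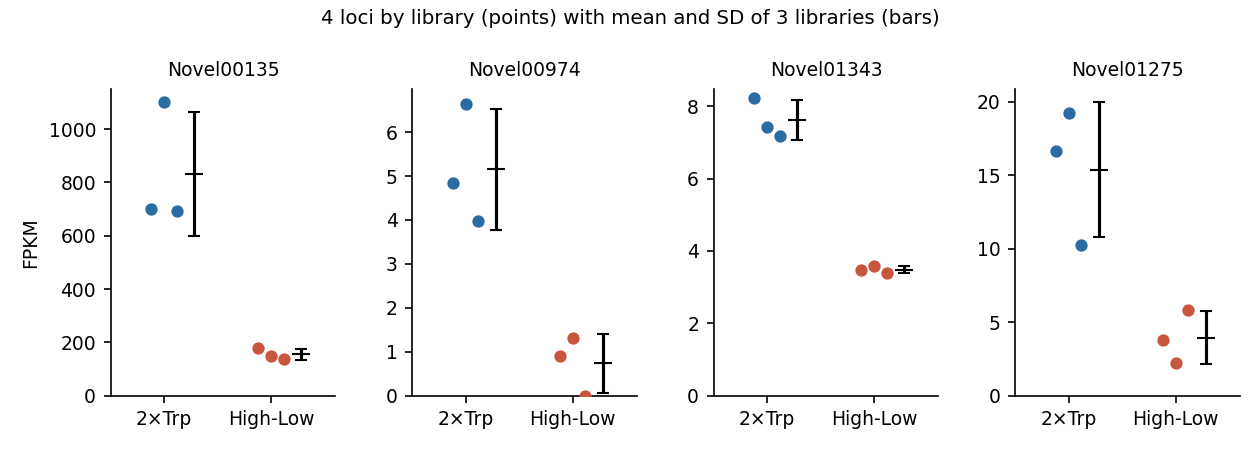
FPKM of 4 loci (vertical, a separate axis from 0 for each) in the 2×Trp libraries (blue) and the High-Low libraries (red), with 1 point per library and the mean with its SD over 3 libraries in black. In each of the 4 loci all 3 High-Low points lie below all 3 2×Trp points.

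The other loci lower in High-Low with the smallest p were Novel00752, Novel00824, Novel01241 and Novel00109, with log2 fold changes from -1.53 to -1.11. Novel00824 was at 3.01, 1.53 and 1.68 FPKM in 2×Trp and at 0.381, 0.416 and 0.386 FPKM in High-Low, and it passed the level rule through 2×Trp alone. Novel00891, 1233 bases from it on the other strand of chromosome 6, was at 24.7, 39.9 and 35.5 FPKM and at 3.12, 16.9 and 13.4 FPKM. In Novel00891 too, every High-Low library was below every 2×Trp library. In Novel00824 that order follows from how it passed the rule. Novel00891 was picked after its values were seen, with a log2 fold change of -1.73 (SE 0.54, adjusted p 0.998 in limma). Its listed length is 161 bases, and it is among the loci in whole-number ratios given under other observations. Novel00109 lies 462 bases from WDR5, a subunit gene of histone methyltransferase complexes, which averaged 15.8 and 15.5 FPKM while the locus averaged 3.69 ± 1.03 in 2×Trp and 1.16 ± 0.597 in High-Low.

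Higher in High-Low with the smallest p were Novel00355, Novel00075, Novel00475, Novel00775, Novel01242, Novel00338, Novel00689 and Novel00444, with log2 fold changes from 0.52 to 1.43 and an adjusted p of 0.998 for each in limma. Most were low. Novel00355 (chromosome 14) was at 0, 0 and 0.898 FPKM in 2×Trp and at 1.59, 2.42 and 3.21 FPKM in High-Low. Novel00355, Novel00075 and Novel00444 passed the level rule through High-Low alone. Novel01242 was the most abundant of the 8, on scaffold GL895036.1 at 697, 705 and 442 FPKM in 2×Trp and 1258, 1014 and 887 FPKM in High-Low, and it lies 2051 bases from POLR1G, a gene of an RNA polymerase I subunit. Novel00689 (chromosome 3) had the smallest spread relative to its level, at 12.3, 13.0 and 14.8 FPKM against 20.5, 19.0 and 19.1.

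Downstream of ERBB3, the gene of a growth-factor receptor, 2 loci had values that differed in opposite directions. Between the flanking genes ERBB3 and COQ10A, RefSeq lists 13 genes, among them PA2G4, ESYT1 and SMARCC2. Whether either locus belongs to any of these genes was not tested. Novel00752 begins 1087 bases past ERBB3 on chromosome 5 and was at 11.6, 6.58 and 9.97 FPKM in 2×Trp and at 2.00, 2.12 and 3.98 FPKM in High-Low. Novel00775, 4406 bases farther on and on the other strand, was at 42.4, 28.3 and 24.4 FPKM in 2×Trp and at 66.3, 47.5 and 65.2 FPKM in High-Low. Neither pair of groups overlapped. The log2 fold changes were -1.50 (SE 0.30) and 0.91 (SE 0.26), with an adjusted p of 0.998 for each in limma, and r between the 2 loci was -0.69. The annotated row nearest to Novel00775 is ENSSSCG00000000377, 2458 bases away on the same strand, which averaged 37.9 FPKM in 2×Trp and 32.8 in High-Low, with an r of -0.30 to the locus. ERBB3 averaged 49.5 FPKM in 2×Trp and 59.4 in High-Low, with overlapping groups.

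**Figure D5:**
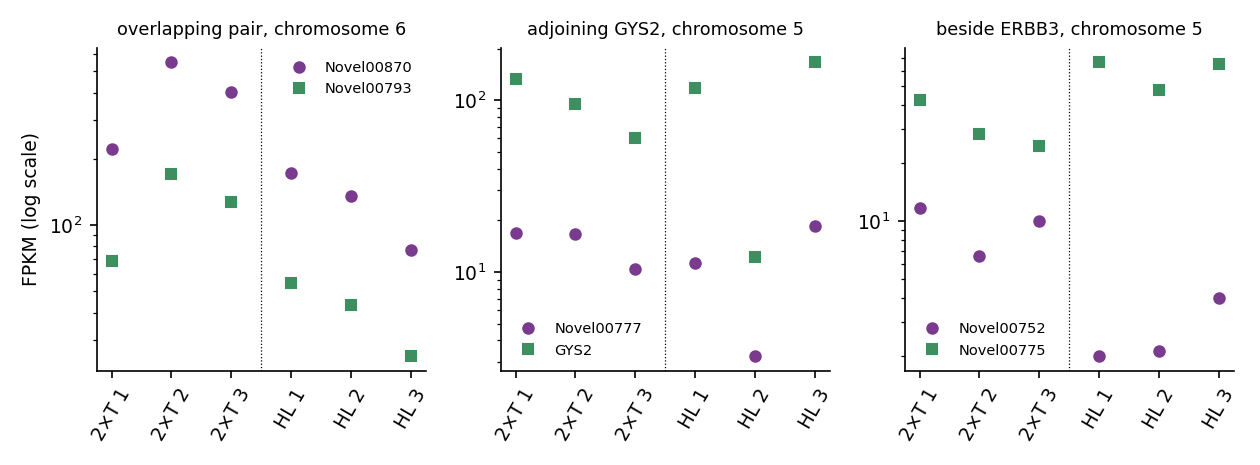
FPKM (vertical, log scale) in each of the 6 libraries (horizontal, 2×T for 2×Trp and HL for High-Low, parted by a dotted line) for 3 pairs of rows: Novel00870 with the overlapping Novel00793, Novel00777 with GYS2, and Novel00752 with Novel00775. The first pair keeps a ratio of 3.04 to 3.23, the second is lowest together in High-Low replicate 2, and the third parts in opposite directions between the groups.

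For some loci 1 library set the mean. Novel01127 (chromosome 9, 153596055 to 153600441) was at 429, 4.76 and 64.9 FPKM in 2×Trp and at 1.57, 8.52 and 2.38 FPKM in High-Low, so its highest library was 6.61 times the next. Its log2 fold change of -3.65 was the most negative plotted, with an SE of 1.47 and overlapping groups. Novel01161, Novel01158 and Novel00544 were highest in High-Low replicate 1, at 34.9, 709 and 396 FPKM, and Novel00986 in High-Low replicate 2, at 29.8 FPKM. Each of these 4 was at least 3.5 times its next library. Novel01161 and Novel01158, with listed lengths of 171 and 100 bases, are among the loci in whole-number ratios given under other observations.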

How the data were processed

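Each library has its own table of values, positions, strands and lengths. Its header names no unit; what the authors deposited was taken as FPKM, since the values are fractional and sum differently in each library. Per the submitters' processing notes, Bowtie2 2.2.3, TopHat2 2.0.12, HTSeq 0.6.1 and susScr3 were used. How the unannotated rows were assembled, and whether strand was used, is not stated in these sources. Read depth is unknown. The members and lists were chosen with earlier results of these data known.

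All rows at 1 FPKM or more in at least 3 libraries entered limma 3.58.1 (R 4.3.3) as log2(FPKM + 1) (trend and robust variance, Benjamini-Hochberg, threshold 0.05), a step tested on simulated data. With changes planted only in the more abundant rows, it recovered 30.6% of log2 changes of 1 and 92.8% of changes of 2. Fold changes on this scale understate low rows. The nearest annotated row is the one with the smallest gap between listed starts and ends. Symbols came from Ensembl identifiers. RefSeq's Sscrofa11.1 list was used only for genes between 2 flanking symbols, and no genome sequence was used here. Named loci are 4 examples, the 10 of highest mean, 8 per direction by smallest p, 5 high in 1 library, 3 on each side of the level rule and the 5 longest, of which 1 is not reported here. Others were picked after their values were seen. Alternatives were other scalings, filters, pseudocount, variance settings, a replicate block, distance limits and leaving out each library. Figures were drawn with matplotlib 3.10.9.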

Additional observations from a re-analysis of the deposited data

How the results depend on the processing

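The log2 fold changes of 16 loci, the 8 of smallest p in each direction, kept their direction under every alternative that could be fitted to them, and 2 of 200 such values crossed the threshold: Novel00135 under the 2 scalings. With each library scaled to its FPKM total, or to nuclear rows without the top 20, 2 rows passed among all rows and 1 among the loci, against 1 and 0. Leaving out each library in turn gave 1 to 2 rows passing among all rows, 0 loci passing, 48 to 179 loci at an unadjusted p under 0.05 and a median log2 fold change of -0.02 to 0.03. The 179 came without High-Low replicate 2, and the cause was not tested. With a filter of 5 FPKM, which keeps 629 loci, 29 were at an unadjusted p under 0.05 and the median log2 fold change was -0.052. With listed lengths of at least 200, an alternative chosen after seeing the data, 45 were. With a replicate block, 59 loci reached it and none passed the adjusted threshold, with a log2 fold change of -2.38 for Novel00135. Deviations of libraries with the same number had an r of -0.22, -0.01 and 0.03, beside -0.13 to 0.12 for libraries with different numbers. Whether libraries with the same number share a litter or a batch cannot be told from these r.

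The difference in the share of nuclear FPKM kept its sign, from 0.0584 to 3.95 percentage points without each library in turn, and was 0.390 with listed lengths of at least 200. With annotated rows counted as neighbours only where they pass the level rule, the median gap was 15591 bases, and the median r within 5 kb was 0.28. Within 1 kb of an annotated row lay 184 loci, and within 20 kb 702. Rows of short listed length carry much of the summed level, and the files give no fragment numbers for them, so no counting error can be attached to their values.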

Other observations

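Some pairs of short rows stood in ratios of small whole numbers in most or all libraries. Among 6320 rows with a mean over 5 FPKM, 85 pairs had ratios of whole numbers up to 30 in at least 5 libraries, within a relative tolerance of 1.2e-05. These pairs take in 109 rows, annotated rows among them, so the ratios are not particular to the loci. Of the loci they take in 50, the longest with a listed length of 215. Novel00404 and Novel01315 have unlike listed lengths, 80 and 92 bases. Their FPKM stood as 1 to 1, 5 to 2 and 17 to 5 in 2×Trp and as 16 to 15, 4 to 3 and 5 to 6 in High-Low. For Novel01275, the smallest whole numbers that fit its ratios to 2 other rows were 26, 26 and 21 in 2×Trp and 7, 4 and 11 in High-Low. Whole numbers that share a factor give the same ratios, so fragment counts cannot be read from them. Whether such values rest on few fragments was not tested.

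A single locus lies on chromosome Y. Novel01411 (1297343 to 1297737) adjoins ENSSSCG00000012178 at a distance of 12 bases and was at 15.6, 45.1 and 29.0 FPKM in 2×Trp and at 36.6, 40.3 and 37.6 FPKM in High-Low. The lowest library was 2×Trp replicate 1, and the groups overlapped.

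Novel01175, on scaffold GL893503.1 from 45121 to 45401, was named after its values were seen. It was at 301, 1706 and 662 FPKM in 2×Trp and at 2065, 1885 and 1866 FPKM in High-Low. The 3 High-Low libraries lay close together while the 2×Trp libraries spread widely, and the log2 fold change was 1.47 (SE 0.56, adjusted p 0.998 in limma).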
